A study of Mus musculus with 12 samples.

Results

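Liver (LIV) was compared with subcutaneous inguinal white fat (SAT) inside the same 3 drug-treated mice, on 6 of the 12 arrays of the series. The arrays were chosen by their labels alone, as the LIV and SAT arrays of animals 16, 18 and 20, and all 22206 probe sets that are not array controls were tested, 19572 of them with a gene symbol. The HFD + LY mice were male C57BL/6N, 8 weeks old at the start, and received LY2584702 tosylate (LY), an oral inhibitor of the kinase S6K1, at 25 mg/kg every 12 hours for 12 weeks, with a 60% kcal high-fat diet during the last 10 weeks. The other 6 arrays are LIV and SAT of animals 8, 11 and 14, which were fed the same diet and gavaged with vehicle (HFD). No mouse without the diet was on these arrays, and whole tissue was used, so every difference below is one between mixtures of cells.

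Liver and white fat share the handling of fat and sugar. Hepatocytes release most plasma proteins, make glucose, urea, bile acids and lipoproteins, and clear foreign compounds. White adipocytes take up fatty acids, store them as triglyceride in 1 large droplet, release them again by lipolysis, and secrete hormones such as adiponectin and leptin. Many of these steps are carried out by isoforms of 1 enzyme that are written from different genes. S6K1 acts downstream of insulin and mTORC1, the nutrient-sensing kinase complex, in both tissues.

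Values are log2 signals, so that a difference of 1 is a doubling, and differences are LIV minus SAT with the standard error (SE) of the paired fit. Adjusted p values come from limma, with the Benjamini-Hochberg method applied across all 22206 tests, and those below 0.05 were called. In HFD + LY mice 4526 probe sets were called higher in LIV (20.4%) and 5245 lower (23.6%). With the arrays centred on ribosomal protein genes the balance turned, to 10463 higher and 3376 lower, and without animal 16 the counts were 2922 and 3809. Small differences were common among them. Of 1449 probe sets for odorant, taste and vomeronasal receptors, which serve smell and taste, 518 were called higher in LIV and 5 lower, with a median difference of 0.28, but only 1 differed at least 4-fold. The counts of interest are therefore those at 4-fold or more, 752 probe sets higher in LIV (3.39%) and 670 lower (3.02%). The 95th percentile of the receptor probe sets, 7.57, was taken as the dim level. Of the 752, 433 lay under it in SAT, and of the 670, 319 lay under it in LIV. A fold with such a dim side is given as a lower bound against that level, and the log2 difference of such a gene is a fitted value from which no order between genes is read.

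LIV arrays correlated with each other at 0.9871 to 0.9903, SAT arrays at 0.9731 to 0.9952 and arrays of different tissues at 0.7902 to 0.8127. The median SE was 0.10 and the median SD 0.13 in LIV and 0.14 in SAT (n = 3 each). SAT of animal 20 stood apart through skeletal muscle genes. The mean of 22 muscle fibre genes was 7.55, 7.50 and 7.65 in LIV and 7.76, 7.84 and 12.08 in SAT of animals 16, 18 and 20, and 256 probe sets were higher by at least 1 in SAT of animal 20 than in the mean of the other two. Results that rest on this sample are given with and without animal 20. In bulk tissue fewer cells of a type and less RNA per cell cannot be told apart.

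**Figure D1:**
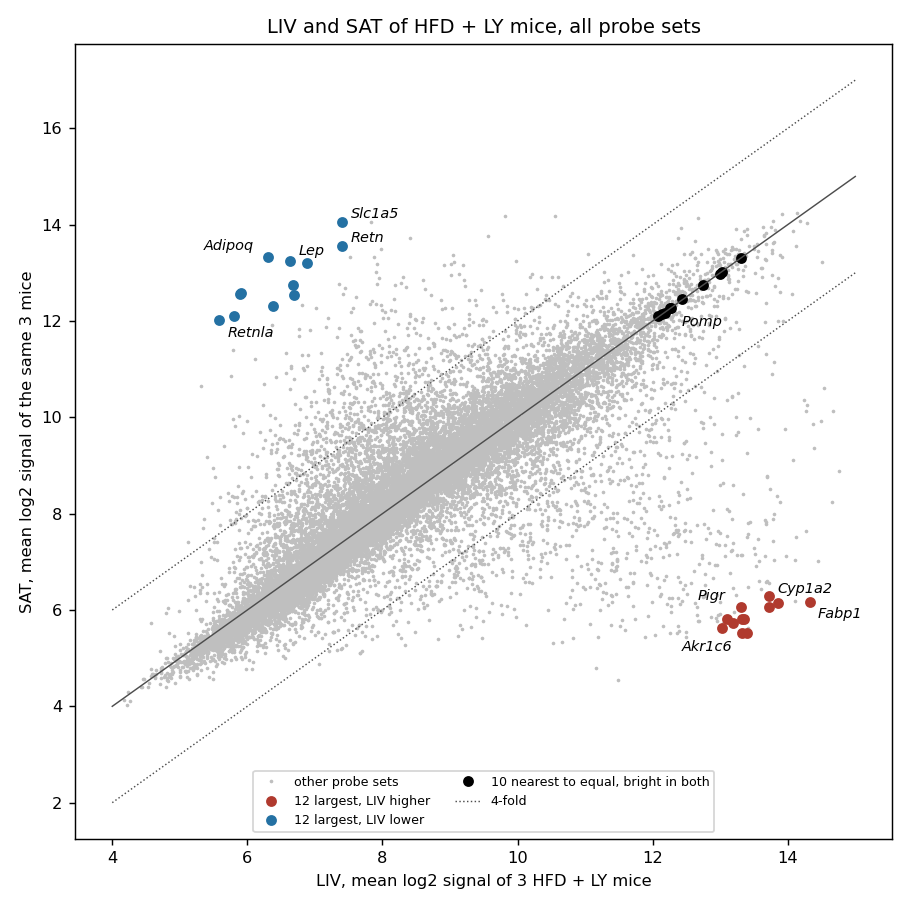
Mean log2 signal of each probe set in LIV (horizontal axis) and SAT (vertical axis) of 3 HFD + LY mice, with the 12 largest differences per direction and the 10 bright genes nearest to equal marked. The dotted lines mark 4-fold, and the marked genes higher in LIV, such as Fabp1 and Cyp1a2, lie near 6 in SAT, under the dim level of 7.57.

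The 12 genes with the largest fitted differences in each direction, 1 per family, are described together, since all 24 lay under the dim level in the lower tissue. Higher in LIV was Fabp1, the liver fatty acid binding protein, at 14.38, 14.29 and 14.31 in LIV and 6.48, 5.76 and 6.28 in SAT of animals 16, 18 and 20. The groups were far apart, and the difference was 8.16 ± 0.14 (SE, adjusted p = 9.74e-07), at least 108-fold. The others were Akr1c6, a hydroxysteroid dehydrogenase (7.87, at least 57.0-fold), Ugt2b5, a glucuronosyltransferase (7.79, at least 54.0-fold), Fgg, the gamma chain of fibrinogen (7.71, at least 78.4-fold), and Serpina1b, an alpha-1 antitrypsin (7.66, at least 71.7-fold). Mup21, a major urinary protein, Slc10a1, the bile acid carrier NTCP, Kng1, a kininogen, Cyp1a2, a drug-oxidizing cytochrome, Slco1b2, an organic anion carrier, Sult2a8, a sulfotransferase, and Pigr, the receptor that carries polymeric immunoglobulin A across cells, had fitted differences of 7.54 to 7.25. Probe sets of close families (Mup, Serpina1, Mug, Ugt2b, Cyp2c and Cyp4a) can share sequence, and single members of them are uncertain.

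Lower in LIV was Adipoq, which encodes adiponectin. It stood at 6.31, 6.38 and 6.25 in LIV and 13.36, 13.32 and 13.29 in SAT, a difference of -7.02 ± 0.09 (SE, adjusted p = 8.96e-07), at least 54.2-fold. Slc1a5, the neutral amino acid carrier ASCT2, was at 7.44, 7.57 and 7.20 in LIV and 13.94, 14.10 and 14.15 in SAT, at least 90.3-fold lower in LIV. All 3 LIV samples lay far under all SAT samples for both genes. Tissue groups without overlap were common, at 11974 of all tested probe sets (53.9%). Lep, the satiety hormone leptin, differed by -6.63 ± 0.16, and Retn, the adipocyte hormone resistin, by -6.15 ± 0.11. Arxes2 (-6.67), Lgals12, a galectin of adipocyte lipid droplets (-6.65), Retnla, a resistin-like product of alternatively activated macrophages (-6.43), Aoc3, an amine oxidase of vessels and adipocytes (-6.31), and Scn7a, an atypical sodium channel (-6.31), were of similar size. Timp4, an inhibitor of metalloproteinases (-6.07), Ntrk2, the receptor for brain-derived neurotrophic factor (-5.93), and Tmem45b (-5.85) completed the 12.

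Of the 31 pathway lists, that of plasma proteins had the highest median. Counts of called members of this and every later list stand beside 20.4% higher and 23.6% lower over all probe sets. Of 32 transport and acute phase proteins measured, 31 were called higher in LIV, 25 of them at least 4-fold, and the median difference was 5.70 (5.09 with dim members at their bounds), against 0.03 over all probe sets. In SAT 16 of the 32 lay under the dim level. Serpina1b was at 13.75, 13.74 and 13.70 in LIV and 6.02, 5.91 and 6.26 in SAT. Alb, the main plasma protein albumin, was at 14.53, 14.43 and 14.50 in LIV and 10.50, 10.44 and 8.84 in SAT. Albumin signal in SAT was thus well above the dim level, unevenly between the animals, and the difference was 4.56 ± 0.34 (adjusted p = 0.000179), or 4.01 without animal 20. Hp, the haemoglobin scavenger haptoglobin, was the member not called. It was at 13.35, 13.31 and 13.44 in LIV and 13.07, 13.05 and 13.33 in SAT. LIV was above SAT in each animal, by 0.28, 0.26 and 0.11, and the mean of 0.22 (adjusted p = 0.107) was called with ribosomal centring (0.49) and with a prior that follows intensity, and had the other sign after quantile normalization of the 6 arrays (-0.0066). Other plasma proteins with a strong SAT signal were Rbp4, the retinol carrier (1.28), Trf, transferrin (1.29), and Orm1, an acute phase glycoprotein (0.88), all called higher in LIV.

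The promoters of these plasma protein genes were read for letters that liver factors are known to bind. GTTAAT, which reads ATTAAC on the opposite strand, is the left part of the HNF1 site, and GTTAATNAT, which holds it, is a longer form. RefSeq windows (GRCm38.p6) of 300 bases, from 250 before to 50 after the start on the gene's own strand, were found for 28 of the 32 genes, in 31 windows. GTTAAT occurred in 13 of these windows (41.9%), and in 1195 of 19143 windows of all tested genes (6.24%). The genes with it were Afm, Alb, Cp, Itih1, Mug1, Mug2, Pzp, Vtn and the 5 Serpina1 genes, whose windows are copies of each other in part. The longer GTTAATNAT was in 4 windows (12.9%), those of Afm, Alb, Cp and Pzp, against 0.679% of all. The other letters searched on both strands were CAAAGTCCA, an HNF4 site, in 0 plasma protein windows (0.512% of all), TTGCGCAA, a C/EBP site, in 1 window (3.23%, against 0.225%), and AGGTCAAAG, the direct repeat bound by HNF4 and PPAR receptors, in 2 (6.45%, against 0.397%). Among the 12 genes highest in LIV, 3 of 13 windows held GTTAAT (23.1%: Fabp1, Serpina1b and Slco1b2), while it was in 0 of 8 windows of the 12 genes lowest in LIV. These matches describe letters in a window and say nothing of binding. The windows of Alb, Afm and Pzp are printed because each holds the longer form, and that of Serpina1b because it holds only the shorter one. Capitals mark GTTAAT or ATTAAC. Alb lies at chr5:90460620-90460919 on the plus strand with its match 32 bases before the start, Afm, the vitamin E carrier afamin, at chr5:90518699-90518998 on the plus strand with matches 138 and 73 bases before it, Pzp, a broad protease inhibitor, at chr6:128526671-128526970 on the minus strand with matches 199 and 79 bases before it, and Serpina1b at chr12:103738140-103738439 on the minus strand with its match 26 bases before the start.
Alb: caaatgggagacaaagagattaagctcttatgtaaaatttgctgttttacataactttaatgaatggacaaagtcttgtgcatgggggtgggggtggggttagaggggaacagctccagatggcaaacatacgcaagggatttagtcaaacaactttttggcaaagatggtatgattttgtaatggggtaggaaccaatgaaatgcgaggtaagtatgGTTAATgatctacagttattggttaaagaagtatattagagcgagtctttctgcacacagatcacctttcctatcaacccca
Afm: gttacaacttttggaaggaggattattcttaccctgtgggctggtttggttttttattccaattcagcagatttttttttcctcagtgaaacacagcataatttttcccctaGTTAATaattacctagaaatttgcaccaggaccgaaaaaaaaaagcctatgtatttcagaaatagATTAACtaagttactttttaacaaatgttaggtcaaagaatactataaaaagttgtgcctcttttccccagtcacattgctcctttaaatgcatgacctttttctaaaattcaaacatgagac
Pzp: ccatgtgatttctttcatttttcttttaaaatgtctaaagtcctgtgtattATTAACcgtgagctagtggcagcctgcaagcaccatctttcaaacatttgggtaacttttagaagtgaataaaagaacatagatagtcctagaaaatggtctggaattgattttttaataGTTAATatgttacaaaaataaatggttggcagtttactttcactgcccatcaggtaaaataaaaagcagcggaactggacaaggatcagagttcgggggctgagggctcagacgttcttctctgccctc
Serpina1b: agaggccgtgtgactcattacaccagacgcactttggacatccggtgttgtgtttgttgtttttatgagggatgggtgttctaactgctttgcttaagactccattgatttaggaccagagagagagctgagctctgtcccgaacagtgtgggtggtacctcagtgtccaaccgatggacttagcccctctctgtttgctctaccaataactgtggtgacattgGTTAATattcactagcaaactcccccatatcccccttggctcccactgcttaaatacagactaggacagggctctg
In expression these 4 genes differed by 4.56 (Alb), 4.52 (Afm), 7.09 (Pzp) and 7.66 (Serpina1b) between LIV and SAT.

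Genes of clotting and complement were mostly higher in LIV, with some lower. Of 26 coagulation genes 19 were higher and 6 lower in LIV (median 4.22, or 3.79 with dim members at their bounds). The share of lower ones was close to that over all probe sets (23.6%), and that of higher ones was above it (20.4%). The higher ones named here are circulating factors, Fgg (7.71), Kng1 (7.47), Serpinc1, which encodes antithrombin (7.08), and Plg, plasminogen (6.55). The lower ones, known from vessels, macrophages or stroma, included F13a1, the A chain of factor XIII (-2.40), Thbd, thrombomodulin (-1.91), F3, tissue factor (-1.67), and Plat, tissue plasminogen activator (-1.47). Of 28 complement genes 17 were higher, 13 of them at least 4-fold, and 9 lower (median 0.73). C9 and Hc, which encode components of the terminal pathway, were higher in LIV by 6.73 and 6.55, as were C4bp, a regulator (6.13), and Masp2, a lectin pathway protease (5.59). C7, another terminal component, was lower in LIV (-3.15), with Cd55, a membrane inhibitor (-2.49), C1qa, a chain of the macrophage product C1q (-2.13), and C3ar1, a complement receptor (-1.99).

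Most hormones that each tissue is known for were higher in that tissue. Of 13 hepatokines 12 were higher in LIV and 0 lower (median 3.77), with Ahsg, fetuin A, at 6.63, Fetub, fetuin B, at 6.48, Lect2, a chemotactic hepatokine, at 5.82, and Fgl1, a fibrinogen-like protein, at 5.04. Fgf21, the fasting hormone, was near the dim level in both tissues, at 7.74, 7.72 and 7.81 in LIV and 7.47, 7.35 and 7.63 in SAT, and was not called (adjusted p = 0.0559). Of 23 adipokines 15 were lower and 5 higher in LIV (median -1.06). Beside Adipoq, Lep and Retn the genes lower in LIV included Npr3, the natriuretic peptide clearance receptor, which is not itself a hormone (-5.80). Those higher in LIV were led by Agt, angiotensinogen (2.99), and included Igf1, a growth factor written in both tissues, at 13.35, 13.39 and 13.49 in LIV and 12.49, 12.65 and 12.67 in SAT (0.81 ± 0.09, adjusted p = 0.000894).

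The transcription factors that maintain each cell type followed the same line. Of 20 hepatocyte factors 16 were higher in LIV, 13 at least 4-fold, and 0 lower (median 2.63). Hnf4a, a nuclear receptor that hepatocytes depend on, was at 12.15, 12.18 and 12.28 in LIV and 7.13, 7.21 and 7.77 in SAT (4.83 ± 0.13, at least 24.8-fold, adjusted p = 3.78e-06). Nr1h4, the bile acid receptor FXR, differed by 4.90, Nr1i3, the xenobiotic receptor CAR, by 4.82, and Nr1i2, its relative PXR, by 4.32. Of 23 adipocyte factors 17 were lower in LIV, 11 at least 4-fold, and 2 higher (median -1.66, or -1.02 with dim members at their bounds). Lower in LIV were Hoxc8, a positional homeobox gene (-4.36), Ebf1, an early factor of adipogenesis (-3.83), Ebf3 (-3.74) and Peg3, an imprinted zinc finger gene (-3.67). Pparg, the master regulator of fat cells, was at 8.86, 9.36 and 9.82 in LIV and 12.06, 12.08 and 11.82 in SAT (-2.64 ± 0.22, adjusted p = 0.000313), while Ppara, its relative that drives fatty acid oxidation, was at 12.11, 12.15 and 12.00 in LIV and 8.41, 8.14 and 7.89 in SAT (3.94 ± 0.11). The 2 receptors were thus on opposite sides in each animal. Cebpa, which both cell types use, differed by 0.07 (adjusted p = 0.598), at 9.64, 9.43 and 9.45 in LIV and 9.42, 9.36 and 9.53 in SAT.

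**Figure D2:**
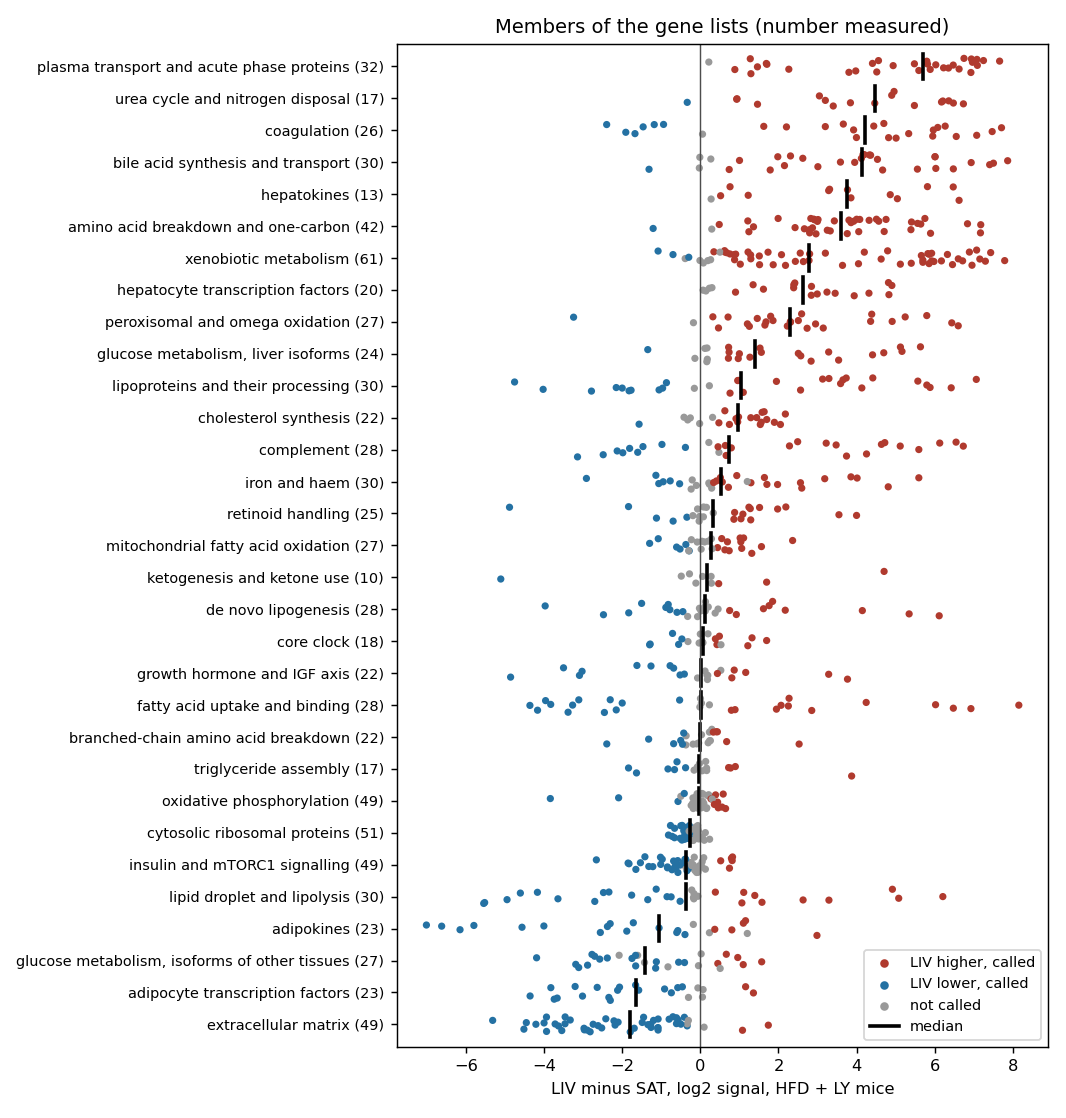
LIV minus SAT (log2 signal, horizontal axis) of each measured member of 31 gene lists in HFD + LY mice, 1 point per gene, coloured by call, with the list's median as a bar. Medians run from 5.70 for plasma proteins to -1.80 for extracellular matrix, and lists of shared machinery such as oxidative phosphorylation lie within 1 of 0 apart from a few members.

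Genes of fat storage stood on both sides, with a different set in each tissue. Of 30 genes of the lipid droplet and lipolysis, 15 were lower in LIV, 9 at least 4-fold, and 10 higher, 5 at least 4-fold (median -0.37). Lower in LIV were Acvr1c, the activin receptor ALK7 of adipocytes (-5.55), Aqp7, the adipocyte glycerol channel (-5.52), Cidec, which fuses droplets (-4.95), and Plin1, the perilipin that guards the adipocyte droplet (-4.61). Plin1 stood at 8.37, 8.17 and 8.35 in LIV and 13.01, 12.96 and 12.76 in SAT. The lipases of adipocyte lipolysis were lower in LIV too, Lipe, hormone-sensitive lipase, by -4.17 and Pnpla2, adipose triglyceride lipase, by -2.34. Higher in LIV were Aqp9, the glycerol channel of hepatocytes (6.21), Hsd17b13, a droplet protein of hepatocytes (5.08), Ces1g, a carboxylesterase (4.92), and Cideb, a relative of Cidec that acts on lipoprotein lipidation (3.29). Plin2, which coats droplets in most cells, was bright in both, at 12.79, 12.74 and 12.58 in LIV and 12.76, 12.82 and 13.03 in SAT. Its groups overlapped, and it was not called (-0.17, adjusted p = 0.306).

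Fatty acid uptake showed 12 genes higher and 12 lower in LIV of 28, with 9 and 11 of them at least 4-fold (median 0.01). Fabp1, Slc27a2, a hepatic acyl-CoA synthetase and carrier (6.93), Slc27a5, which also activates bile acids (6.48), and Fabp2, the binding protein best known from gut (6.02), were on the LIV side. On the SAT side, Fabp4, the adipocyte binding protein aP2, was at 10.02, 9.73 and 9.71 in LIV and 13.91, 14.20 and 14.44 in SAT (-4.37 ± 0.17). Cd36, a scavenger receptor that takes up long-chain fatty acids, was at 8.97, 9.28 and 8.80 in LIV and 13.22, 13.16 and 13.18 in SAT (-4.17 ± 0.12, adjusted p = 5.04e-06). Neither gene overlapped between tissues, as was so for 53.9% of all probe sets. Slc27a1 (-3.96), an insulin-responsive relative of Slc27a2, Fabp5 (-3.83), and Lpl, the lipase that frees fatty acids from lipoproteins (-2.0 ± 0.09), were lower in LIV as well. Triglyceride assembly was more even. Of 17 genes 4 were higher and 6 lower, against 20.4% and 23.6% over all probe sets. The 1 gene at least 4-fold was Lpin2, a phosphatidate phosphatase (3.87). Dgat2, which closes the triglyceride molecule, differed by -0.08 (adjusted p = 0.669) and had the other sign without animal 20 (0.10).

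De novo lipogenesis, the making of fatty acids from sugar, had 9 genes higher and 9 lower in LIV of 28 (median 0.12). Among the enzymes of the main chain, 2 were not called and 2 were lower in LIV. Acaca, acetyl-CoA carboxylase 1, was at 10.35, 10.54 and 10.52 in LIV and 10.39, 10.75 and 10.22 in SAT (0.02, adjusted p = 0.93), and Acly, ATP citrate lyase, differed by 0.13 (adjusted p = 0.389). Fasn, fatty acid synthase, was lower in LIV, at 10.47, 10.95 and 10.90 against 11.33, 11.63 and 12.01 in SAT (-0.88 ± 0.11, adjusted p = 0.00172), and Scd1, the main stearoyl-CoA desaturase, by -1.50. Wide differences lay in the enzymes that lengthen and desaturate fatty acids. Elovl2, which makes very long polyunsaturated chains, was higher in LIV by 6.12, Elovl3 by 5.35 (5.91 without animal 20), Fads2, the delta-6 desaturase, by 4.15 and Fads1, the delta-5 desaturase, by 2.17. Fads3, a member of the same gene cluster, was lower in LIV, at 8.22, 8.27 and 7.77 against 12.03, 12.03 and 12.12 in SAT (-3.97 ± 0.14).

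Of 27 genes of mitochondrial fatty acid oxidation 12 were higher and 6 lower in LIV, with 1 at least 4-fold (median 0.28). The shares over all probe sets were 20.4% and 23.6%. Without animal 20 the counts were 12 and 4 (median 0.25), and without animal 16 or without animal 18 only 3 were lower. Cpt1a, the carnitine palmitoyltransferase of liver, was at 12.48, 12.55 and 12.50 in LIV and 10.88, 10.95 and 11.01 in SAT (1.56 ± 0.09, adjusted p = 6.12e-05). Cpt1b, the muscle and brown fat form, was at 8.34, 8.63 and 8.58 in LIV and 8.96, 9.31 and 10.52 in SAT. The sample of animal 20 with muscle genes was the highest, and the difference of -1.08 became -0.65 without it. On a list that joins peroxisomal and omega oxidation 25 of 27 genes were higher in LIV, 15 of them at least 4-fold, and 1 lower (median 2.30). Cyp4a14, Cyp4a32 and Cyp4a10, which oxidize fatty acids at the far end and are targets of Ppara, were higher by 6.60, 6.44 and 5.80. The exception was Abcd2, a peroxisomal carrier of very long-chain acyl-CoA, at -3.25, opposite to its relative Abcd3 at 2.59. In ketone metabolism, 3 of 10 genes were higher and 1 lower in LIV (median 0.17), with 2 lower without animal 20. Bdh1, which forms 3-hydroxybutyrate, differed by 4.70 ± 0.14 (at least 22.1-fold), and Oxct1, which extrahepatic tissues need to burn ketones, was at 8.0, 7.87 and 7.84 in LIV and 12.96, 12.98 and 13.11 in SAT (-5.11 ± 0.10, adjusted p = 1.38e-06).

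Genes of glucose metabolism differed by isoform. Of 24 genes of the liver forms, 18 were higher in LIV, 10 at least 4-fold, and 1 lower (median 1.40). Slc2a2, the glucose carrier GLUT2, was at 12.96 to 13 in the 3 LIV samples and 7.33 to 7.35 in the 3 SAT samples (5.64 ± 0.09, at least 42.5-fold, adjusted p = 8.96e-07). G6pc, the phosphatase that releases glucose to blood, was higher by 5.16, Gckr, the regulator of glucokinase, by 5.12, and Fbp1, a fructose bisphosphatase of gluconeogenesis, by 4.70. Other steps of glucose making were shared with fat, where they feed glycerol synthesis. Pck1, which makes phosphoenolpyruvate, was at 11.03, 10.99 and 11.18 in LIV and 10.36, 10.55 and 10.12 in SAT (0.72 ± 0.14, adjusted p = 0.00797), and Pcx, pyruvate carboxylase, differed by 0.17 (adjusted p = 0.162). Of 27 genes of the forms used elsewhere, 15 were lower in LIV, 8 at least 4-fold, and 5 higher (median -1.43, or -0.61 without animal 20). Hk2, the insulin-responsive hexokinase, was lower by -4.19, Pfkfb3, which sets the rate of glycolysis, by -3.19, Pygb by -3.12 and Gys1, glycogen synthase 1, by -2.89. Muscle forms on this list rested on 1 sample. Pygm, muscle glycogen phosphorylase, was at 8.42, 8.10 and 8.22 in LIV and 8.73, 8.86 and 13.40 in SAT, and its difference of -2.08 (adjusted p = 0.121) became -0.53 without animal 20.

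Set side by side, 16 pairs of isoforms or partners, chosen with these values known, lay on opposite sides of 0 in each of the 3 animals. Slc2a4, the insulin-regulated carrier GLUT4, was at 7.46, 7.20 and 7.88 in LIV and 9.96, 10.13 and 10.18 in SAT (-2.58, at least 5.75-fold), opposite to Slc2a2. Gys2 was at 12.90, 12.89 and 12.92 in LIV and 10.01, 10.30 and 10.88 in SAT (2.51), and Gys1 at 8.92, 8.99 and 9.01 in LIV and 11.87, 11.80 and 11.93 in SAT. Pyruvate kinase was divided into Pklr (1.00 ± 0.13) and Pkm (-2.71 ± 0.21, or -2.305, -2.448 and -3.367 in animals 16, 18 and 20). Glycogen phosphorylase was divided into Pygl (1.53) and Pygb. For these genes no sample of one tissue reached the range of the other, which held for 53.9% of all probe sets. SAT signal was not absent for the liver forms, since Gys2, Pklr and Pygl lay above the dim level in every SAT sample.

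**Figure D3:**
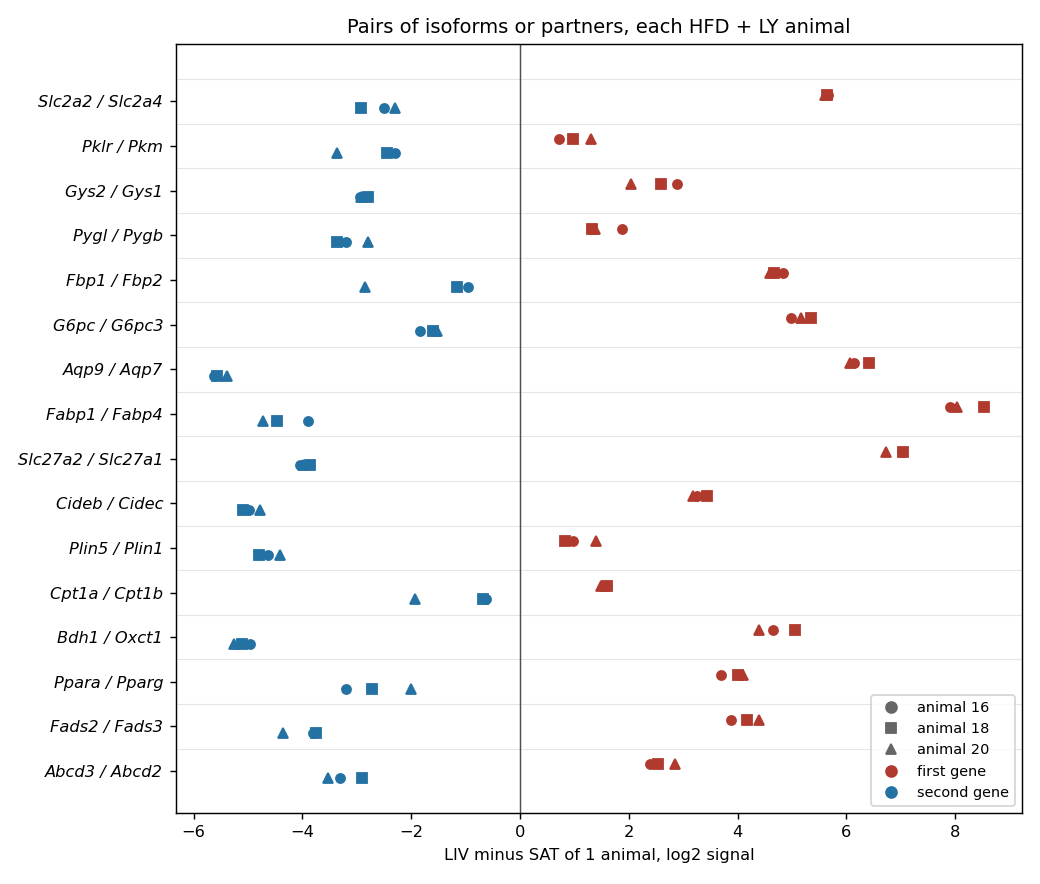
LIV minus SAT (log2 signal, horizontal axis) of 16 pairs of isoforms or partners, 1 point per HFD + LY animal and gene, with the first gene of each pair in red and the second in blue. Every red point lies above 0 and every blue point below, and for Cpt1b, Fbp2 and Pkm the triangle of animal 20 lies apart on the low side.

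Genes of nitrogen and amino acid handling were higher in LIV with few exceptions. Of 17 genes of the urea cycle and nitrogen disposal 16 were higher, 13 at least 4-fold, and 1 lower, Slc1a4, a call lost without any 1 of the 3 animals (median 4.47), and of 42 genes of amino acid breakdown and one-carbon metabolism 40 were higher, 35 at least 4-fold, and 1 lower (median 3.60). Cps1, the entry enzyme of the urea cycle, was at 13.19, 13.24 and 13.13 in LIV and 6.54, 6.43 and 6.37 in SAT (6.74 ± 0.09, at least 49.2-fold, adjusted p = 8.96e-07). Otc, the next enzyme, differed by 6.48, at least 24.1-fold. Tat and Tdo2, which start the breakdown of tyrosine and tryptophan, differed by 7.18 and 7.17, and Gnmt, which uses up S-adenosylmethionine, by 6.84. Csad, which makes hypotaurine for taurine, was the amino acid gene lower in LIV (-1.21). Slc38a4, an amino acid carrier, showed the sample effect again, with 13.53, 13.53 and 13.49 in LIV and 6.14, 6.17 and 9.15 in SAT, and its difference was 6.36, or 7.37 without animal 20. Of 22 genes of branched-chain amino acid breakdown 5 were higher and 6 lower (median -0.01), shares close to those over all probe sets. The counts were 3 and 8 without animal 20 (median -0.12) and 2 and 3 without animal 16. The list held Ppm1k, the phosphatase that switches the dehydrogenase on, higher (2.53), Bckdk, the kinase that switches it off, lower (-1.32), and Bcat1, a cytosolic aminotransferase, lower (-2.40).

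Bile acid genes were higher in LIV in 26 of 30 cases, 22 at least 4-fold, with 1 lower, Abcb1a, a broad efflux pump (median 4.14). Cyp7a1, the rate-limiting enzyme of bile acid synthesis, was at 11.56, 11.59 and 11.68 in LIV and 6.89, 6.93 and 7.40 in SAT (4.54 ± 0.11, at least 16.5-fold, adjusted p = 3.02e-06). Akr1d1, a reductase of the same pathway, differed by 6.94 and the uptake carriers Slc10a1 and Slco1b2 by 7.50 and 7.41. Of 61 genes of xenobiotic metabolism 52 were higher in LIV, 36 at least 4-fold, and 3 lower (median 2.78). Cyp2d26 was higher by 7.16 and Cyp1a2 by 7.43. The genes lower in LIV were Cyp1b1, an extrahepatic cytochrome (-1.08), Fmo2, a flavin monooxygenase best known from lung (-0.70), and Nnmt, which methylates nicotinamide (-0.30, not called with the arrays centred on ribosomal protein genes).

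Of 30 genes of lipoproteins and their processing 18 were higher in LIV, 13 at least 4-fold, and 10 lower, 5 at least 4-fold (median 1.04). Apof (7.07), Apoa2 (6.42), Lcat, which esterifies cholesterol in plasma (5.88), and Apoa1 (5.80) were among the higher ones, and Apob, the backbone of very low-density lipoprotein, was at 13.28, 13.05 and 12.99 in LIV and 7.39, 7.67 and 7.55 in SAT (5.57 ± 0.13, at least 46.5-fold). Lower in LIV were Apod (-4.76), Apol6 (-4.03), Sort1, a sorting receptor (-2.79), and Gpihbp1, which anchors lipoprotein lipase to capillaries (-2.15). Of 22 genes of cholesterol synthesis 16 were higher in LIV, 2 at least 4-fold, and 1 lower, Ggps1, which makes a precursor for protein prenylation (median 0.97). The LIV samples were unequal here. Cyp51, a demethylase of the pathway, was at 8.91, 10.30 and 9.84 in LIV and 7.39, 7.54 and 7.96 in SAT (2.05 ± 0.23, adjusted p = 0.00107). Sqle, squalene epoxidase, was at 8.48, 10.61 and 9.94 in LIV and 7.94, 8.24 and 8.17 in SAT (1.56 ± 0.33, adjusted p = 0.0124). Animal 16 was the lowest LIV sample for both, yet above its own SAT sample. Insig1, which holds back sterol-driven transcription, differed by 1.44 ± 0.24. Nsdhl was called (0.98 ± 0.25, adjusted p = 0.0251), but not without animal 20 (adjusted p = 0.0651) or without the animal block (0.0587).

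Genes of the pathway that the drug acts on were mostly at moderate differences. Of 49 genes of insulin and mTORC1 signalling 26 were lower and 5 higher in LIV, with 1 at least 4-fold (median -0.37). With the arrays centred on ribosomal protein genes, 16 were lower and 9 higher, so the balance depends on the scaling. Grb10, an adaptor that restrains the insulin receptor, was the member at 4-fold (-2.66 ± 0.09). Akt2, the Akt form of insulin-responsive tissues, was at 11.33, 11.27 and 11.23 in LIV and 12.84, 12.82 and 12.78 in SAT (-1.54, adjusted p = 5.84e-05). Irs1, an insulin receptor substrate, was at 9.77, 9.65 and 9.39 in LIV and 10.74, 10.94 and 10.05 in SAT (-0.98 ± 0.14), and Irs2 differed by -0.34 (adjusted p = 0.0434), a call lost without animal 20. Both lay lower in LIV in all 3 animals. Eif4ebp1, a translation repressor under mTORC1, differed by -1.02 and Mtor itself by -0.62. Rps6, the substrate of S6K1, was at 12.11, 12.06 and 12.08 in LIV and 12.25, 12.31 and 12.24 in SAT (-0.18, adjusted p = 0.145), and Rps6kb2, the second S6 kinase, differed by -0.10 (adjusted p = 0.407), and both had the other sign with ribosomal centring. These are transcript levels, and the phosphorylation that the drug acts on was not measured on the arrays. In the growth hormone and IGF axis 6 of 22 genes were higher and 10 lower (median 0.02), with binding proteins on both sides. Igfbp2 was higher by 3.77 and Igfbp1, an insulin-suppressed product of liver, by 3.29, while Htra1, a protease that cleaves binding proteins, was lower by -4.86 and Igfbp5 by -3.50. Ghr, the growth hormone receptor, differed by -0.41 (adjusted p = 0.0144), a call lost with ribosomal centring (adjusted p = 0.272).

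Genes of iron and retinoid handling were higher in LIV more often than lower. In each list the share lower was under that over all probe sets (23.6%). Of 30 iron and haem genes 17 were higher and 6 lower in LIV (median 0.54). Hamp, which encodes hepcidin, the hormone of iron balance, was at 12.25, 12.20 and 11.93 in LIV and 8.06, 8.33 and 8.41 in SAT (3.86 ± 0.14, adjusted p = 1.17e-05), and its regulators Tfr2 and Tmprss6 differed by 4.81 and 4.01. Heph, a ferroxidase of iron export, was lower in LIV (-2.92). Of 25 retinoid genes 12 were higher and 5 lower (median 0.33), with Rdh7, a retinol dehydrogenase, at 4.0 and Rbp7, a retinol binding protein of adipose vessels and adipocytes, at -4.89. Of 18 core clock genes 6 were higher and 5 lower (20.4% and 23.6% over all probe sets), none 4-fold. Nr1d1, a repressor of the clock, was at 10.69, 10.64 and 9.69 in LIV and 12.10, 11.84 and 10.97 in SAT, so animal 20 was the lowest in both tissues, while the difference was alike in all 3 (-1.30 ± 0.09).

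The direction of shared machinery turned on the scaling. Of 49 oxidative phosphorylation genes 8 were higher and 4 lower in LIV (median -0.04), with 21 higher and 3 lower after ribosomal centring and 6 higher and 17 lower after quantile normalization of the 6 arrays alone. Without animal 16 only 3 were higher, and without animal 18 only 5. The 2 members at 4-fold were forms of brown fat and muscle, Cox8b (-3.84) and Cox7a1 (-2.09, or -1.39 without animal 20). Of 51 cytosolic ribosomal protein genes 27 were lower in LIV and 0 higher, with a median of -0.28. Only 6 were lower without animal 16 and 12 without animal 18, and centring on these genes removes the shift by construction. The 10 bright genes nearest to equal, namely Pomp, Psma7, Sumo3, Nme2, Pon3, Ndufa13, Cycs, Map1lc3b, Ssbp1 and Cyb5r3, differed by at most 0.02 (adjusted p of 0.896 to 0.996). They were chosen for their small differences, so these high p values are no further support. The same genes differed by -0.13 to -0.26 after renewed quantile normalization and by 0.26 to 0.29 after ribosomal centring. The brightest probe sets by family averaged 14.07 (Adh1) to 14.66 (Apoa2) in LIV and 13.89 (Cox6c) to 14.19 (Sparc) in SAT, with Sod1, superoxide dismutase 1, among the 10 of both.

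Of the 31 pathway lists, extracellular matrix had the lowest median. Of 49 extracellular matrix genes 44 were lower in LIV, 24 at least 4-fold, and 2 higher (median -1.80, or -1.76 with dim members at their bounds). Dpt, dermatopontin, was at 8.46, 8.76 and 7.99 in LIV and 13.62, 13.79 and 13.75 in SAT (-5.32 ± 0.16). Sparcl1 (-4.52), Mmp3, a matrix protease (-4.46), Adamts5, an aggrecanase (-4.21), and Sparc, a collagen-binding protein at 10.60, 10.51 and 10.55 in LIV and 13.88, 14.13 and 14.55 in SAT (-3.63), were lower in LIV. The 2 higher in LIV were Col18a1, the source of endostatin (1.74), and Fn1, fibronectin, which hepatocytes release into plasma (1.08).

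Marker lists matched the labelled tissues. All 9 hepatocyte markers were higher in LIV, and the list averaged 13.42 to 13.43 in LIV and 7.91 to 7.98 in SAT. All 11 white adipocyte markers were lower in LIV, with averages of 7.93 to 8.11 in LIV and 12.72 to 12.76 in SAT. Supporting cells followed. Of 14 markers of adipose fibroblasts and progenitors 12 were lower and 1 higher in LIV, among them Pi16 (-4.18) and Cd34 (-3.69), with Dpp4 on the other side (1.20). All 10 of 10 markers of capillary endothelium were lower, among them Cldn5, a tight junction protein (-4.28). Fabp4 is on this list and on that of white adipocytes, so the 2 lists are not separate for it. Kupffer cell markers, those of resident liver macrophages, were split, with 6 of 10 higher in LIV, Clec4f at 9.27, 9.70 and 9.12 in LIV and 6.81, 6.85 and 7.05 in SAT (2.46), 2 lower, and Timd4 not called (-0.16, and 0.12 with ribosomal centring). Of 10 adipose macrophage markers 9 were lower in LIV. Of 11 liver sinusoidal endothelium markers 5 were higher and 1, Stab1, lower, a call lost without animal 16 or 18, with Clec4g at 3.33 and Fcna not called (0.08). Of 11 brown or beige adipocyte markers 5 were lower in LIV and 2 higher, Elovl3 and Pank1, which hepatocytes also use. Ucp1, the uncoupling protein that defines brown fat, was under the dim level in all samples, at 5.72, 5.87 and 6.21 in LIV and 6.25, 6.70 and 6.03 in SAT, so Ucp1 was not detectable with this probe set in either tissue. Krt8 and Krt18, simple epithelial keratins that hepatocytes also carry, were higher in LIV by 4.06 and 4.43.

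**Figure D4:**
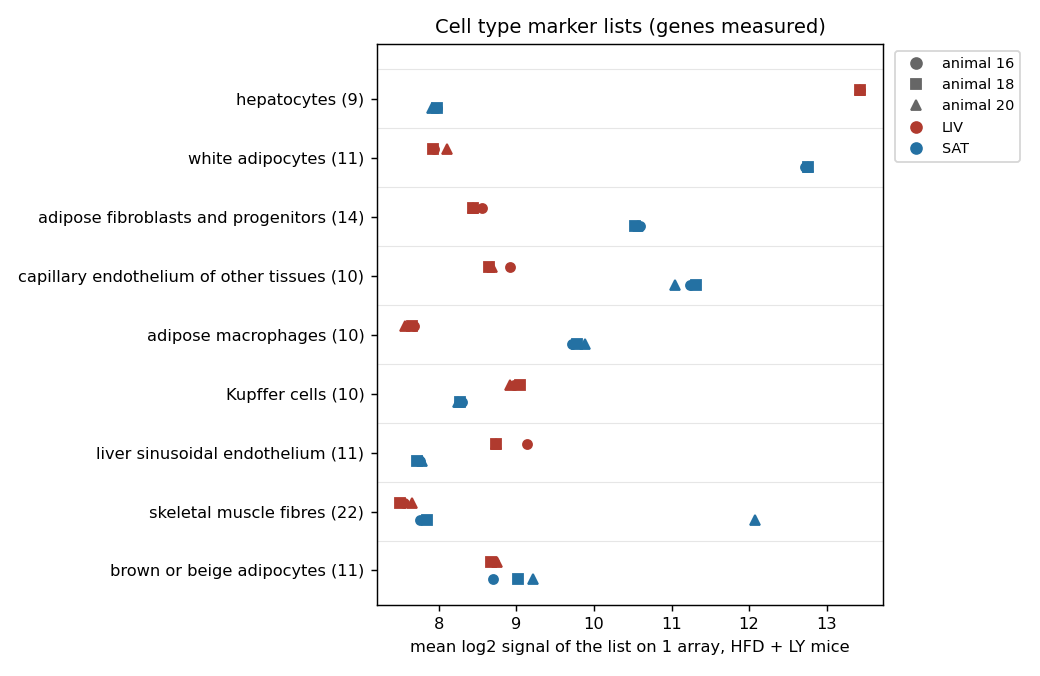
Mean log2 signal (horizontal axis) of 9 cell type marker lists on each of the 6 HFD + LY arrays, LIV in red and SAT in blue, with the number of genes measured in brackets. Hepatocyte and white adipocyte markers separate the tissues by about the same distance in all 3 animals, and SAT of animal 20 (blue triangle) reaches 12.08 for skeletal muscle fibres, where the other SAT samples lie at 7.76 and 7.84.

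The muscle markers were spread widely within SAT. Acta1, skeletal actin, was at 7.87, 8.0 and 8.14 in LIV and 9.67, 9.20 and 12.94 in SAT. The 22 genes had a median difference of -1.59 with all animals and -0.07 without animal 20. Muscle signal was uneven in HFD mice too, whose SAT samples averaged 7.89, 12.24 and 8.96 in animals 8, 11 and 14. Ckm and Myh2, at -0.75 and -0.93 with all animals, were at 0.34 and 0.02 without animal 20. How far muscle accounts for differences in genes that it shares with fat was not tested beyond leaving this animal out.

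Whether the tissue difference was particular to HFD + LY mice was asked by testing it against the same difference in HFD mice, which share no sample with it. There were 9771 calls in HFD + LY mice and 9104 in HFD mice, of which 7567 were shared in the same direction, 77.4% of those in HFD + LY mice and 83.1% of those in HFD mice. Only 2 were called in opposite directions, and the 2 sets of differences correlated at 0.9737 over probe sets. No probe set passed an adjusted p of 0.05 in limma's interaction test (smallest 0.0813), while 1471 had an unadjusted p under 0.05 (6.62%), 814 of them with a higher difference in HFD + LY mice and 657 with a lower one. Without the animal block 9 passed, and with an intensity trend in the prior 13. None passed when any 1 animal was left out. The smallest adjusted p of the interaction test was 0.389, 0.1 and 0.253 without HFD animals 8, 11 and 14. It was 0.109, 0.402 and 0.0695 without HFD + LY animals 16, 18 and 20. SAT of animals 11 and 20 had the most muscle signal.

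The genes with the 5 smallest p values in each direction are given as values. Cyp4a12b, a fatty acid omega-hydroxylase that male mice express, differed by 2.93, 2.81 and 3.11 between LIV and SAT in HFD + LY mice and by 4.33, 4.57 and 4.48 in HFD mice, an interaction of -1.51 ± 0.14 (SE, adjusted p = 0.0813). The 2 groups of animals did not overlap, but the 10 genes were chosen by their small p values, so this is no further support. Its mean was 9.68 in LIV of HFD + LY mice and 11.21 in LIV of HFD mice, while SAT was under the dim level in both. Mup9 differed by 4.95, 5.15 and 5.57 in HFD + LY mice and by 3.06, 3.69 and 3.26 in HFD mice (interaction 1.89 ± 0.22, adjusted p = 0.0944). Here LIV was at 13.74 in HFD + LY mice and 13.69 in HFD mice, and SAT at 8.51 in HFD + LY mice and 10.36 in HFD mice. Mup2, Mup19, Mup22 and Mup3 followed at 1.44 to 1.66, and may share probes. Lgals1, a galectin of stromal and immune cells, differed by -4.21 in HFD + LY mice and -3.21 in HFD mice (interaction -1.0, adjusted p = 0.158), with LIV at 9.56 in HFD + LY mice and 10.73 in HFD mice. Ildr2 (-1.18), Ampd3, an AMP deaminase (-1.05), and Zim1, an imprinted zinc finger gene (-1.50), completed the 10.

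Among the lists, cholesterol synthesis had the largest median interaction of its members (0.66). Its median difference was 0.97 in HFD + LY mice and 0.51 in HFD mice. Of its 22 members 10 had an unadjusted interaction p under 0.05, all higher in HFD + LY mice, none with an adjusted p under 0.636. Over all 22206 probe sets the share with such an unadjusted p was 6.62% (1471), 814 of them higher. The list averaged 9.68, 10.50 and 10.25 in LIV and 9.13, 9.29 and 9.39 in SAT of HFD + LY animals 16, 18 and 20. In HFD animals 8, 11 and 14 it averaged 9.58, 9.95 and 9.55 in LIV and 9.65, 9.14 and 9.59 in SAT. SAT of animal 11 was the HFD sample with the highest muscle signal. Insig1 differed by 1.44, 2.11 and 0.78 in HFD + LY mice and by -0.84, 0.74 and -0.63 in HFD mice (interaction 1.68 ± 0.45, adjusted p = 0.636). Its lowest value in HFD + LY mice (0.78) lay close to its highest in HFD mice (0.74). Cyp51 differed by 1.52, 2.76 and 1.88 in HFD + LY mice and by 0.44, 1.52 and 0.42 in HFD mice (interaction 1.26 ± 0.38), and the groups met at 1.52. Of 28 lipogenesis genes 7 were at an unadjusted p under 0.05 (6.62% over all probe sets), all higher in HFD + LY mice. Among them was Fasn, which differed by -0.88 in HFD + LY mice and -1.75 in HFD mice (interaction 0.86 ± 0.26, adjusted p = 0.684). Fasn in SAT averaged 11.66 in HFD + LY mice and 12.44 in HFD mice, with LIV at 10.77 in HFD + LY mice and 10.70 in HFD mice. Cd36 moved the other way, with differences of -4.25, -3.88 and -4.38 in HFD + LY mice and -3.15, -3.41 and -3.12 in HFD mice (interaction -0.94 ± 0.17, adjusted p = 0.328), and LIV at 9.02 in HFD + LY mice and 9.98 in HFD mice. These values are listed as measured, since none passed the adjustment.

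**Figure D5:**
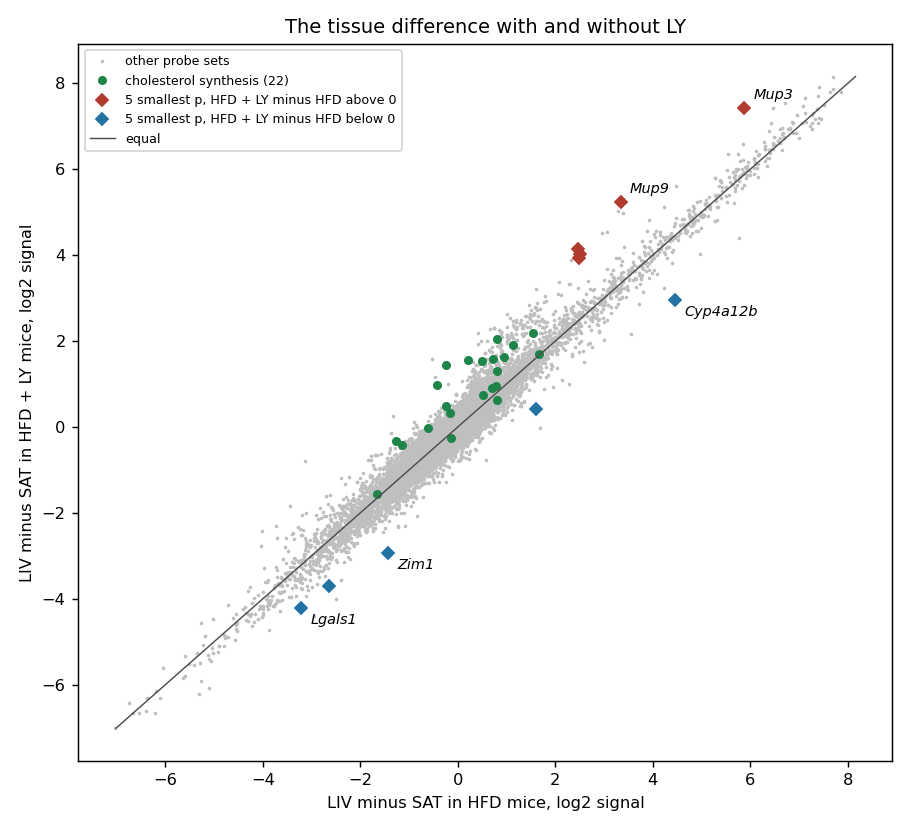
LIV minus SAT (log2 signal) in HFD mice (horizontal axis) and HFD + LY mice (vertical axis) for each probe set, with cholesterol synthesis genes and the 5 smallest interaction p values per direction marked and the line of equality drawn. Most probe sets lie along the line, the cholesterol synthesis genes mostly above it, and Mup9 and Cyp4a12b lie off it on opposite sides.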

How the data were processed

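The 12 Affymetrix mouse arrays hold RNA of LIV and SAT of 3 HFD + LY and 3 HFD mice. The deposited values are log2 signals, which the authors made by RMA (background correction, quantile normalization over all arrays, summary per probe set), per the labels. Quantile normalization forces equal distributions on 2 tissues, which can shift genes of equal level. The genome build of the array annotation is not given in the sources used here. The files list 28846 probe sets, of which 6640 controls were removed and 2634 tested ones had no symbol here. Array medians ran from 8.16 to 8.28. The number of arrays limits the precision.

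LIV minus SAT was fitted in limma 3.58.1 (R 4.3.3) on the 6 HFD + LY arrays with tissue and animal, a constant prior (2 residual and 3.71 prior degrees of freedom) and Benjamini-Hochberg adjustment. Samples are paired by design, as both tissues came from the same animals; deviations from the group means correlated at 0.104, 0.0818 and 0.214 within animals 16, 18 and 20. The difference against HFD mice was an interaction in limma on all 12 arrays with the animal as a block.

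The transcript of the drug's target is not reported here. The comparison, the gene lists and the rules were chosen with earlier results of these data known. Named were the 12 largest differences per direction (1 per family), up to 4 called members per direction of each list and partners of isoform pairs, the 10 bright genes nearest to equal, the 5 smallest interaction p values per direction, up to 4 markers per cell type and the brightest 10 of each tissue. A few genes, such as Cyp7a1, Lipe, Hp, Insr and Fgf21, were added after their values were seen. A list takes 1 probe set per symbol, the brightest. Promoter windows are RefSeq (GRCm38.p6). Figures were drawn with matplotlib 3.10.9 (Python 3.11.15). Alternatives were other fits, priors, weights, scalings, filters and thresholds, and leaving out each animal.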

Additional observations from a re-analysis of the deposited data

Results flagged for a closer look

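Insr, the insulin receptor, was picked out because its tissue difference pointed opposite ways in the 2 groups. LIV minus SAT was -0.20, -0.05 and -0.07 in HFD + LY mice and 0.13, 0.23 and 0.10 in HFD mice. The difference between the groups was -0.263 ± 0.12 (SE), with an adjusted p of 0.755 in limma's interaction test and an unadjusted p of 0.0665. It was not called in HFD + LY mice (adjusted p = 0.369), and with the arrays centred on ribosomal protein genes its difference there was 0.17.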

How the results depend on the processing

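Called probe sets numbered 4526 higher and 5245 lower in LIV. Without the replicate block that pairs the tissues of an animal they were 4345 and 5107. Leaving out 1 animal gave 2922 to 4161 higher and 3809 to 4978 lower, the fewest without animal 16. Centring the arrays on ribosomal protein genes, which differed by -0.27 between LIV and SAT, moved the median of all probe sets to 0.31 and gave 10463 higher and 3376 lower, 75.6% higher against 46.3%, and at 4-fold 880 higher and 502 lower. The methods' t-test, paired, gave 1642 and 2082 after adjustment, a required log2 difference of 1 gave 1503 and 1949, one of 2 gave 752 and 670, and limma's treat against 1 gave 958 and 1138. The 4-fold counts were 596 to 880 higher and 502 to 703 lower over all alternatives. Interaction calls, 0 with the block, were 9 without the replicate block, 13 with an intensity trend, 1 after ribosomal centring and 1 without dim probe sets (Cyp4a12b in both of these).

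Of 317 named genes 282 were called, 267 of them also in every limma alternative that kept all 3 animals. The methods' t-test lost 80 calls, leaving out animals 16, 18 and 20 lost 15, 8 and 8, and ribosomal centring 11; the cause was not tested. The 10 bright genes nearest to equal changed sign under quantile normalization or ribosomal centring, and the latter called Psma7 and Map1lc3b. Among the other named genes the sign turned for 16, none of them called at first or under the setting that turned it. Ribosomal centring called 9 more of these other genes, among them Sod1, Hp, Cebpa, Acly and Dio2. Ribosomal centring gave Atp5b 0.076, Cox6c 0.20, Plin2 0.11, Dgat2 0.20, Insr 0.17, Rps6 0.091, Rps6kb2 0.18 and Timd4 0.12. Quantile normalization over the 6 arrays gave Sod1 -0.087, Hp -0.0066, Acly -0.058 and Dio2 -0.027. Array weights gave Acaca -0.017 and Dgat2 0.0074. Leaving out 1 animal gave Cebpa -0.0040 to 0.14 (lowest without animal 16), and, with the turned sign without animal 20, Acaca -0.12 to 0.13, Dgat2 -0.21 to 0.10, Ckm -1.34 to 0.34 and Myh2 -1.40 to 0.016. Dim signals limit the folds given as lower bounds, and 6753 probe sets lay under the dim level in both tissues.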
